A study of Bos taurus with 4 samples.

Results

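The genes described here encode the subunits and assembly factors of mitochondrial complex I, and were taken as every gene whose platform symbol starts with NDUF. The platform annotation held 41 such genes on 62 probes, of 15227 gene symbols in all. They comprised 6 core subunits, 30 accessory subunits, 3 assembly factors, and NDUFA4 and NDUFA4L2, which carry the family's symbol but are not counted as complex I subunits here. The 40 genes other than NDUFA4L2 had at least 1 probe bright enough to be tested, and each was represented by its brightest tested probe. Counts over the 40 genes include NDUFA4. NDUFAF2, NDUFAF5, NDUFAF6, NDUFAF7, NDUFAF8 and the core subunits encoded by mitochondrial DNA were not analysed here.

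Complex I, the NADH:ubiquinone oxidoreductase of the inner mitochondrial membrane, passes electrons from NADH to ubiquinone and pumps protons out of the matrix. Its core subunits carry the flavin, the iron-sulphur clusters, the quinone site and the proton channels, and are shared with bacteria. Accessory subunits surround the core and are needed for its assembly or stability, and assembly factors help to build the enzyme and leave it afterwards. Ketone bodies such as beta-hydroxybutyrate (BHB) are oxidised in mitochondria with formation of NADH, and embryos turn increasingly to oxidative metabolism as the blastocyst cavity forms.

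The arrays compared embryos of Holstein cows with systemic BHB over 0.9 mmol/l (high BHB) with those of cows under 0.9 mmol/l (low BHB). The groups were formed by the cows' own BHB and not by giving the compound. All cows were superovulated with FSH and cloprostenol, and after insemination with sexed semen embryos were collected 7 days after oestrus began, as morulas together with blastocysts. Each of 4 dual-colour Agilent arrays held amplified RNA of 1 high BHB and 1 low BHB sample, with high BHB in Cy5 on arrays 1 and 2 and in Cy3 on arrays 3 and 4. The labels do not say whether a sample was 1 cow or a pool, nor the share of morulas in it, so the spread between arrays may be partly technical. Each value given for a gene is the log2 of its high BHB signal over its low BHB signal, with the mean ± SD over 4 arrays. In whole embryos fewer cells of a type and less RNA per cell cannot be told apart.

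Median spot intensities were 213 to 421 units in Cy5 and 290 to 612 units in Cy3, and 33.4% to 40.5% of probes in high BHB channels and 33.6% to 48.6% in low BHB channels exceeded the negative control spots. The number of arrays limits the precision. Across the 16575 tested probes, limma called 2 at an adjusted p under 0.05, neither of them with a gene symbol, and 2477 at an unadjusted p under 0.05. Of trophectoderm markers 6 of 7 passed the filter (CDX2, DAB2, GATA2, GATA3, KRT8 and KRT18), with a median of -0.05, and of inner cell mass markers 3 of 4 passed (NANOG, POU5F1 and SOX2, but not KLF17). The cumulus and granulosa genes CYP19A1, FSHR, HAS2, PTX3 and TNFAIP6 were above background in 0 channels, while INHBA, the last of the 6 listed, passed the filter with 1 high BHB and 3 low BHB channels above background. The leukocyte marker PTPRC was above background in 4 high BHB and 4 low BHB channels (mean 0.42 ± 0.39), while CD3E, CD14 and CD68 did not pass. Its levels were 23245 to 36697 units in high BHB and 16523 to 29041 units in low BHB channels. HBA of 2 red cell markers and H1FOO of 6 oocyte transcripts also passed, and 0 of 2 endometrium markers did. Of hypoblast markers 4 of 5 passed, and these 4 lay above 0 (median 0.81), with summed levels of 7721 to 10885 units in high BHB channels and 3387 to 6533 units in low BHB channels. The 3 measured inner cell mass markers lay below 0 (median -0.41), with summed levels of 3780 to 8912 units in high BHB and 3943 to 10804 units in low BHB channels. The part of these markers in the complex I ratios was not tested.

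Complex I genes lay mostly below 0, that is, lower in high BHB than in low BHB embryos. Of the 40 measured genes, 31 had a mean ratio below 0 and 9 above, where 54.4% of the 7886 named genes tested lay below 0. The median over the 40 genes was -0.36 (0.780-fold), against -0.04 over all named genes, and -0.23 without array 1. Limma called 0 of the 40 genes at an adjusted p under 0.05, as it did for all named genes (0%), and the lowest adjusted p among the 40 was 0.204. These calls treat the 4 arrays as biological replicates, as the sample descriptions do. The titles give arrays 1 and 3, and arrays 2 and 4, the same number. With the arrays of a number averaged (the replicate block), limma called 9 of the 40 genes at an adjusted p under 0.05. Over all tested probes it called 1531 of 16575, and the share of named genes was not counted. That fit had only 2 averaged values per probe, so its calls are not firmer than those on 4 arrays. With no adjustment, 16 genes (40% of the 40) had a limma p under 0.05 and a ratio below 0, NDUFA4 among them, where 11.6% of named genes were called in that direction, and 2 genes, NDUFV1 and NDUFA3, had such a p and a ratio above 0, where 5.71% were. With median centring in place of loess, which also moved the median of all named genes to -0.23, these were 22 below and 0 above, and 38 of 40 genes lay below 0, where 68.8% of all named genes did. Without array 4 the count below 0 at that threshold was 10, and without array 3 the count above 0 was 0. The shares of 11.6% and 5.71% hold for the ratios as reported. Shares of named genes at that threshold were not counted under these alternatives.

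The 4 arrays did not weigh equally. Of the 40 genes, 33, 33, 25 and 31 lay below 0 on arrays 1 to 4, and the medians over the genes were -0.56, -0.32, -0.15 and -0.46. The corresponding medians over all named genes were -0.14, 0.0055, -0.02 and -0.06. Complex I genes lay below all named genes on each array, with differences of -0.42, -0.33, -0.13 and -0.40. Of the 40 genes, 20 lay below 0 on all 4 arrays, NDUFA4 among them, and 3 above 0 on all 4, against 15.6% and 10.3% of all named genes. The 20 include NDUFAF1, which passed the filter through low BHB channels alone. Of 38 genes with both channels above background on all arrays, 18 lay below 0 on all 4. In 21 of the 40 genes array 1 had the lowest ratio, and in 10 it had the highest. Array 1 also had the widest ratios over all tested probes, with an SD of 0.83 against 0.44, 0.52 and 0.61 on arrays 2 to 4. Across the 40 genes Pearson's r between arrays was 0.35 to 0.65, against 0.10 to 0.38 across all tested probes, as a description of points that share arrays and labelling.

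**Figure D1:**
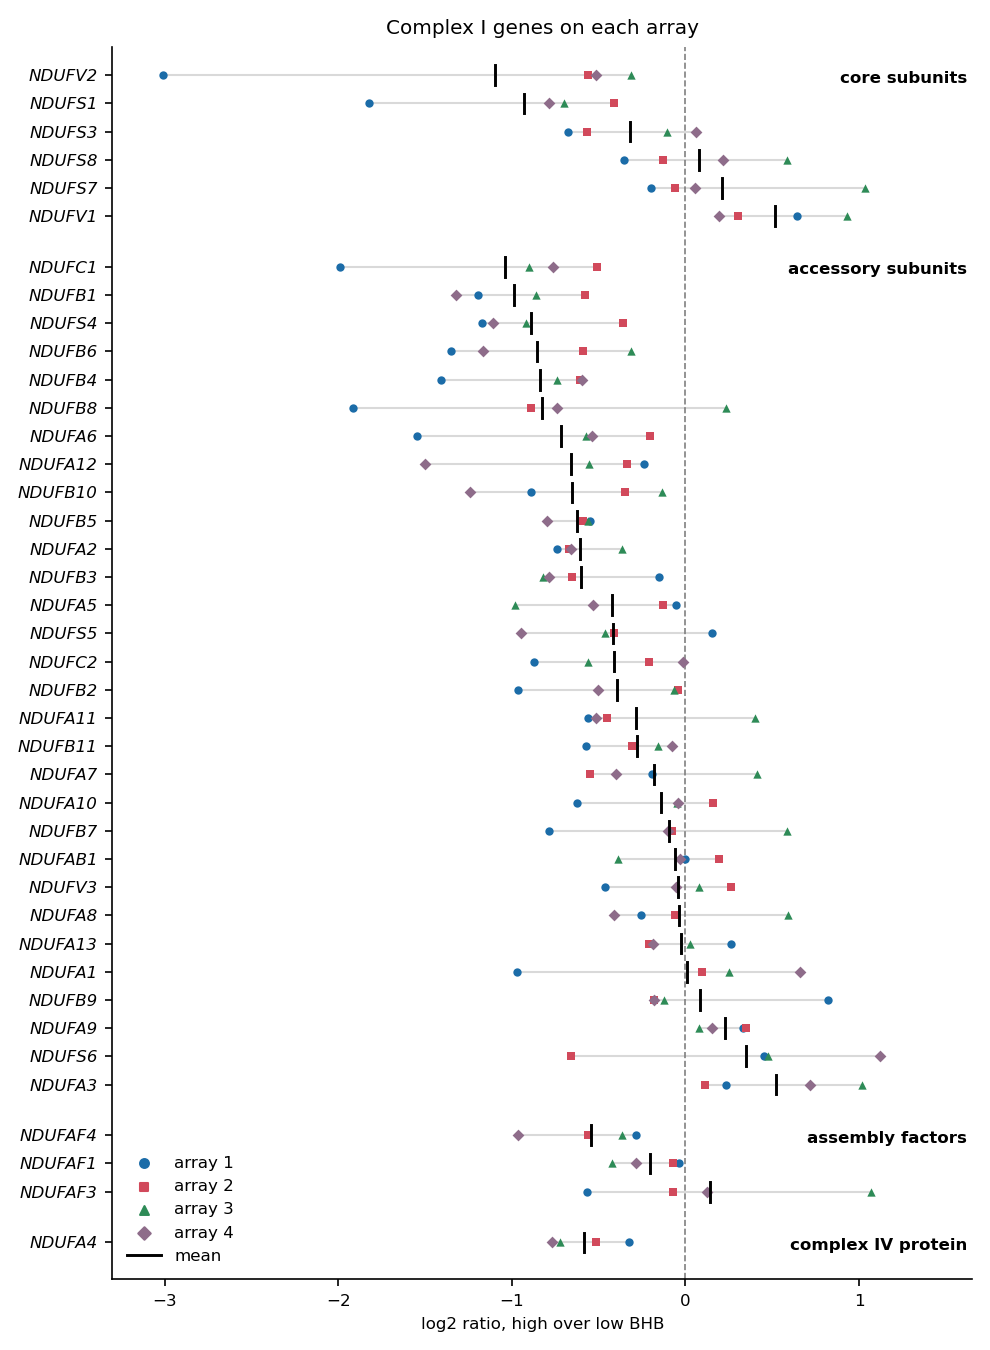
Log2 ratio of high over low BHB (x axis) for each of the 40 measured complex I genes (rows), grouped by class and ordered by mean. Symbols are the 4 arrays, black bars their mean and grey lines their range. Most rows lie left of 0, array 1 is the lowest point of 21 genes, and NDUFV1, NDUFA3 and NDUFA9 are the 3 genes with all 4 arrays above 0.

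Core subunits split. Their median was -0.12, and 3 of the 6 measured genes lay below 0 and 3 above, where 54.4% of all named genes lay below 0. The class medians on arrays 1 to 4 were -0.52, -0.27, 0.24 and 0.06, with opposite signs on the arrays with high BHB in Cy5 and those with high BHB in Cy3. Without array 1 the median was 0.0099, and with median centring it was -0.55.

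The NADH end of the enzyme holds NDUFV1, which binds NADH and the flavin, and NDUFV2, an iron-sulphur protein beside it. NDUFV2 had ratios of -3.01, -0.56, -0.31 and -0.51 on arrays 1 to 4, below 0 on each array and far lower on array 1 than on the others. Its mean was -1.10 ± 1.28 (0.467-fold), or -0.46 without array 1. In normalised log2 intensity NDUFV2 stood at 10.96, 13.39, 12.36 and 12.46 in the high BHB channels and at 13.96, 13.95, 12.67 and 12.98 in the low BHB channels, so the array 1 ratio came with a high BHB channel below those of the other arrays. NDUFV1 lay above 0 on each array, with 0.64, 0.30, 0.93 and 0.19 (mean 0.52 ± 0.33, 1.43-fold). The lowest array of NDUFV1 lay above the highest array of NDUFV2. The adjusted p in limma was 0.291 for NDUFV2 and 0.318 for NDUFV1.

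NDUFS1, the largest subunit, carries iron-sulphur clusters between the flavin and the quinone-reducing part. It had -1.82, -0.41, -0.70 and -0.79, all below 0, with a mean of -0.93 ± 0.62 (0.525-fold, adjusted p = 0.224 in limma, 95% interval -1.51 to -0.35). Its other tested probes, both dimmer, gave means of -0.39 and -0.19, so the size differed between probes.

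The quinone-reducing part held the 3 remaining core genes, none of them with 1 sign on all 4 arrays. NDUFS3, a scaffold subunit, had -0.67, -0.57, -0.11 and 0.06 (mean -0.32 ± 0.36), near 0 on the arrays with high BHB in Cy3. NDUFS7, which holds the last iron-sulphur cluster before ubiquinone, had -0.20, -0.06, 1.03 and 0.05 (mean 0.21 ± 0.56), and its value above 0 came mainly from array 3: it was -0.07 without that array. NDUFS8, another iron-sulphur subunit, had -0.36, -0.13, 0.58 and 0.22 (mean 0.08 ± 0.41), with arrays of the 2 dye orientations on either side of 0. The 95% intervals of these 3 genes in limma included 0.

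Accessory subunits lay lower as a class. Their median was -0.40 (0.755-fold), 25 of 30 lay below 0 and 15 lay below 0 on all 4 arrays, against 54.4% and 15.6% of all named genes. The class medians on arrays 1 to 4 were -0.57, -0.32, -0.15 and -0.51. Without array 1 the class median was -0.23, and with median centring it was -0.84. In limma 12 of the 30 had a 95% interval below 0 and 1 had an interval above 0, against 11.6% and 5.71% of all named genes. Their adjusted p in limma were 0.204 or more.

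NDUFB subunits belong to the membrane arm of the enzyme, the part that pumps protons. Of 11 measured, 10 lay below 0 and 8 lay below 0 on every array, against 54.4% and 15.6% of all named genes. Their median was -0.63 (0.648-fold). The array medians were -0.89, -0.58, -0.16 and -0.74. The other 19 accessory subunits had a median of -0.18, with array medians of -0.26, -0.21, -0.05 and -0.40, and 15 of them lay below 0. The difference between these groups was not tested. The NDUFB median lay between -0.65 and -0.54 when each array was left out in turn.

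NDUFB1, a small subunit with 1 stretch across the membrane, had -1.19, -0.58, -0.86 and -1.32. Its mean was -0.99 ± 0.34 (0.504-fold, 95% interval -1.47 to -0.51, adjusted p = 0.204 in limma), and it lay between -1.13 and -0.88 when any 1 array was left out. Normalised log2 intensities of NDUFB1 were 11.73, 13.22, 13.31 and 13.11 in high BHB channels and 12.92, 13.79, 14.18 and 14.44 in low BHB channels. The low BHB channel was the brighter within each array, while the groups overlapped between arrays because array 1 was dim in both.

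NDUFB5 had the tightest ratios of all members, at -0.55, -0.59, -0.56 and -0.80 (mean -0.63 ± 0.12, 0.648-fold). NDUFB6 had -1.35, -0.59, -0.31 and -1.16 (mean -0.85 ± 0.49), lower on arrays 1 and 4. Its second tested probe gave -0.57. NDUFB4 had -1.41, -0.61, -0.74 and -0.59 (mean -0.84 ± 0.39), with array 1 lowest, and there its high BHB channel was not above background. All 3 subunits sit in the membrane arm, and their adjusted p in limma were 0.258, 0.224 and 0.222.

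NDUFB8, a membrane subunit often used as a marker of assembled complex I on blots, had -1.91, -0.89, 0.23 and -0.74 (mean -0.83 ± 0.88). Its sign turned on array 3, and without array 1 its mean was -0.46. NDUFB10, which faces the intermembrane space, had -0.89, -0.35, -0.13 and -1.24 (mean -0.65 ± 0.50), below 0 on every array but spread widely.

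Outside the NDUFB group the lowest accessory subunit was NDUFC1, a small membrane arm protein, with -1.99, -0.51, -0.90 and -0.77. Its mean was -1.04 ± 0.65 (0.486-fold, adjusted p = 0.207 in limma), and -0.72 without array 1. In normalised log2 intensity it stood at 10.01, 10.38, 9.63 and 10.71 in high BHB channels and at 12.00, 10.89, 10.53 and 11.48 in low BHB channels. NDUFC1 was thus the dimmer in high BHB on each array, with overlap between the groups.

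The accessory subunits of the matrix arm included 3 of the 10 lowest. NDUFS4, whose loss in humans causes Leigh syndrome, had -1.17, -0.36, -0.92 and -1.11 (mean -0.89 ± 0.37, 0.539-fold, adjusted p = 0.204 in limma). Its second tested probe gave -0.27, with 0.30, -0.04, -0.63 and -0.70 on arrays 1 to 4. NDUFA6, an LYR motif protein that holds the acyl carrier protein on the enzyme, had -1.54, -0.21, -0.58 and -0.54 (mean -0.72 ± 0.58), and -0.44 without array 1. NDUFA12, which joins late in assembly, had -0.24, -0.34, -0.56 and -1.50 (mean -0.66 ± 0.58), and -0.38 without array 4. By their brightest probes all 3 lay below 0 on every array. Leaving out 1 array moved NDUFA6 and NDUFA12 by over 1.5 times but not NDUFS4.

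**Figure D2:**
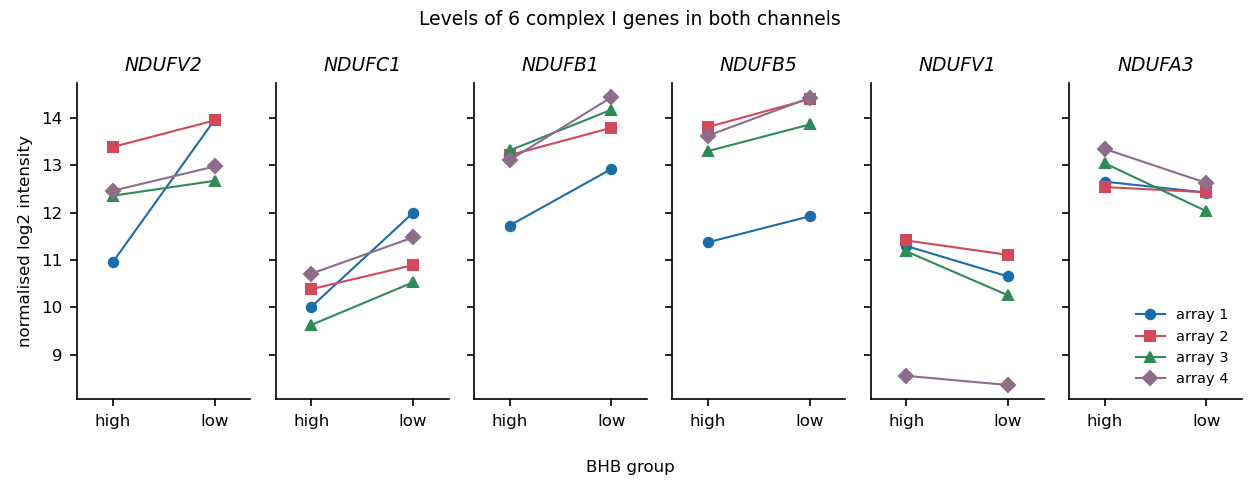
Normalised log2 intensity (y axis) in the high and the low BHB channel of 6 complex I genes, with 1 line per array. Lines of NDUFV2, NDUFC1, NDUFB1 and NDUFB5 go up towards low BHB on all 4 arrays, and those of NDUFV1 and NDUFA3 go down. The array 1 line of NDUFV2 joins 10.96 in high BHB and 13.96 in low BHB.

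The 5 accessory subunits with the highest means were a mixed group. NDUFA3, a short membrane arm protein, had 0.23, 0.11, 1.02 and 0.72 (mean 0.52 ± 0.42, 1.43-fold, adjusted p = 0.328 in limma). The second tested probe of NDUFA3 gave 0.30, with array 2 at -0.56 and the other arrays above 0. NDUFA9, a matrix arm subunit that binds NADPH, had 0.33, 0.35, 0.08 and 0.15 (mean 0.23 ± 0.13), small on each array but above 0 on all 4. With median centring NDUFA9 stood at -0.07.

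NDUFS6, a zinc-binding subunit of the matrix arm, had 0.45, -0.66, 0.48 and 1.12 (mean 0.35 ± 0.74), with array 2 on the other side of 0. Its mean was 0.089 without array 4 and 0.68 without array 2. NDUFB9, the second LYR motif protein of the complex, had 0.82, -0.18, -0.13 and -0.18, so that its mean of 0.08 ± 0.49 rested on array 1 and was -0.16 without it. The other tested probe of NDUFB9 stood at -1.08 on array 1, with a mean of -0.24. NDUFA1, which is encoded on the X chromosome, had -0.97, 0.09, 0.25 and 0.66 and a mean near 0 (0.0079 ± 0.70). NDUFB11, also X-linked, had a mean of -0.28 ± 0.22 with all 4 arrays below 0. For NDUFS6, NDUFB9 and NDUFA1 the spread between arrays was larger than the mean.

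The remaining 15 accessory subunits all had means below 0, between -0.61 and -0.03, and 6 of them had all 4 arrays below 0. Of all named genes 15.6% did, but these 15 are the middle of a ranking by mean. Those 6 were NDUFA2, NDUFB3, NDUFA5, NDUFC2, NDUFB2 and NDUFB11. NDUFA2, a thioredoxin-like matrix arm subunit, was the steadiest of them at -0.74, -0.67, -0.36 and -0.66 (mean -0.61 ± 0.17). NDUFB3 stood at -0.60 ± 0.31, and NDUFA5 at -0.42 ± 0.43. Members near 0 included NDUFAB1, the mitochondrial acyl carrier protein, at -0.06 ± 0.24, NDUFA13, also known as GRIM19, at -0.03 ± 0.22, NDUFV3 at -0.05 ± 0.31 and NDUFA8 at -0.04 ± 0.44. The others were NDUFS5 (-0.42 ± 0.45), NDUFA11 (-0.28 ± 0.46), NDUFA7 (-0.18 ± 0.42), NDUFA10 (-0.14 ± 0.34) and NDUFB7 (-0.09 ± 0.56).

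Assembly factors numbered 3, too few to stand for their class, with a median of -0.20 and array medians of -0.28, -0.07, -0.37 and -0.29. NDUFAF4 had -0.28, -0.56, -0.37 and -0.96 (mean -0.54 ± 0.30, 0.686-fold, adjusted p = 0.302 in limma), below 0 on each array. NDUFAF3, with which it pairs in building the quinone-reducing part, had -0.56, -0.07, 1.07 and 0.13 (mean 0.14 ± 0.68), with array 3 highest and -0.17 without that array. NDUFAF1, which acts on the membrane arm, had -0.04, -0.07, -0.42 and -0.29 (mean -0.20 ± 0.18). It was dim, and its high BHB channel exceeded background on 2 arrays and its low BHB channel on 4. NDUFAF1 thus passed the filter through the low BHB channel alone, which favours a ratio below 0. Its mean is also the class median. With both channels above background on all arrays, which leaves NDUFAF1 out, the class median was -0.20.

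NDUFA4, a subunit now assigned to cytochrome c oxidase, had -0.32, -0.51, -0.72 and -0.77 (mean -0.58 ± 0.21, 0.668-fold, adjusted p = 0.282 in limma). NDUFA4L2, its paralogue, had 1 probe that did not pass the filter, above background in 0 high BHB channels and 1 low BHB channel.

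Between the classes, core subunits lay above accessory subunits by 0.05, 0.05, 0.39 and 0.57 in class median on arrays 1 to 4 (mean 0.27 ± 0.25). The gap was close to 0 on the arrays with high BHB in Cy5 and larger on those with high BHB in Cy3. Assembly factors differed from accessory subunits by 0.29, 0.25, -0.22 and 0.22, and from core subunits by 0.23, 0.20, -0.61 and -0.35, so neither difference had 1 sign on all arrays. Members of a class are not replicates, and these differences were not tested. By place in the enzyme, the median was -0.40 over 20 membrane arm subunits, 17 of them below 0, and -0.32 over 15 matrix arm subunits, 10 of them below 0. Of all named genes 54.4% lay below 0. On arrays 1 to 4 the membrane arm differed from the matrix arm by -0.35, 0.01, -0.02 and -0.11.

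**Figure D3:**
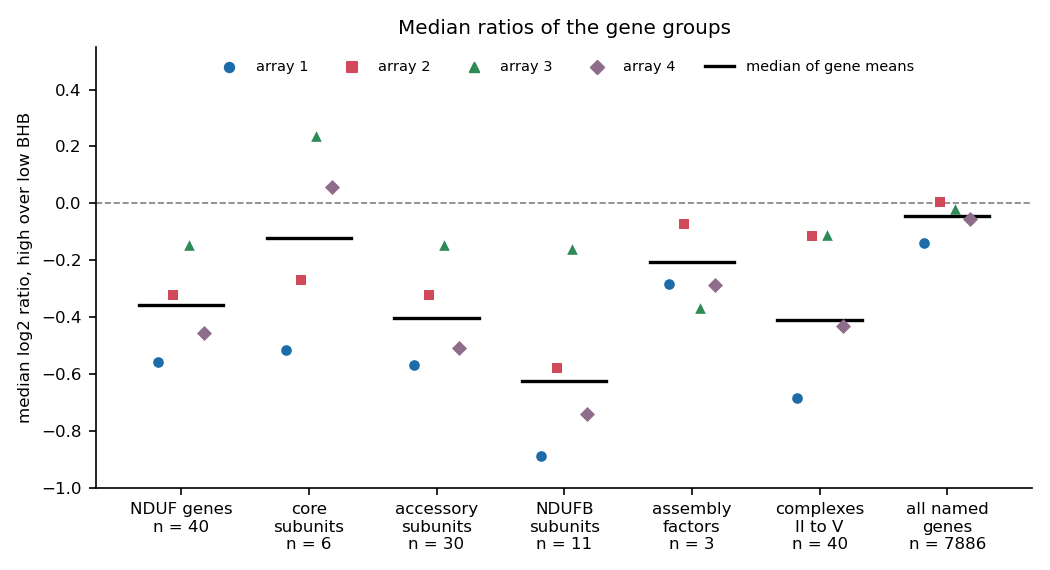
Median log2 ratio of high over low BHB (y axis) for groups of genes (x axis, with the number of measured genes). Symbols are the medians on each of the 4 arrays, and black lines the median of the gene means. Accessory and NDUFB subunits lie below 0 on all 4 arrays, core subunits lie on both sides, and all named genes lie between -0.14 and 0.0055.

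Split by dye orientation, 34 of the 40 genes lay below 0 with high BHB in Cy5 and 28 with high BHB in Cy3, and 25 lay below 0 in both. The shares of all named genes below 0 by orientation were not counted, so these counts have no reference here. The medians over the 40 genes were -0.42 and -0.27, against -0.07 and -0.03 over all named genes. Core subunits had medians of -0.43 and 0.19 in these orientations, accessory subunits -0.44 and -0.27, and assembly factors -0.32 and -0.35. With the dye as a second term limma called 0 members for a dye effect at an adjusted p under 0.05 and 0 at an unadjusted p under 0.05, and over all tested probes 0 and 610.

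Several probes of a gene gave a check on the single ratios. Of 57 tested complex I probes 44 lay below 0 and 13 above. In 15 genes more than 1 probe was tested, and 11 of these had probes of 1 sign. The genes with probes of both signs were NDUFA1, NDUFA10, NDUFB9 and NDUFS8, and the brightest probe of each lay within 0.14 of 0. The widest disagreement was 0.74 in NDUFS1, followed by 0.62 in NDUFS4, and in both the brightest probe gave the lowest ratio.

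**Figure D4:**
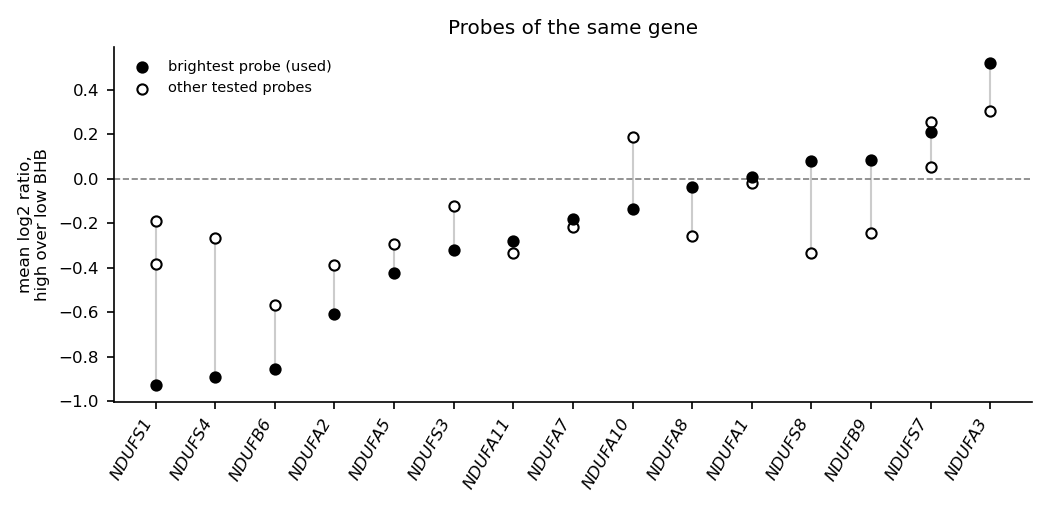
Mean log2 ratio of high over low BHB (y axis) for each tested probe of the 15 complex I genes with more than 1 (x axis, ordered by the brightest probe). Filled circles are the brightest probes, whose values are reported, and open circles the others. In 11 genes all probes lie on 1 side of 0.

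Genes without an NDUF symbol that were listed beside complex I, mainly assembly factors, lay below 0 in 7 of 8 cases with a median of -0.18. Of all named genes 54.4% lay below 0. TMEM126B, part of the membrane arm assembly complex, had -1.62, -0.45, -0.37 and -1.63 (mean -1.02 ± 0.70, adjusted p = 0.224 in limma), with arrays 1 and 4 lowest. Its partners in that complex included ECSIT at -0.21 ± 0.12, below 0 on all 4 arrays, and TMEM186 at 0.54 ± 0.76, which rested on array 1 at 1.67. AIFM1 stood at -0.28 ± 0.43, and TMEM70, a factor for ATP synthase as well, at -0.19 ± 0.33. TMEM70 exceeded background in 2 high BHB and 4 low BHB channels. It thus passed the filter through low BHB alone, which favours a ratio below 0. The protease PARL had -0.17 ± 0.31, NUBPL, which delivers iron-sulphur clusters to complex I, -0.11 ± 0.25, and the membrane insertase OXA1L -0.07 ± 0.69. FOXRED1 was too dim to be tested.

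The other respiratory complexes gave a setting for these values. Against 54.4% of all named genes, 31 of 40 measured genes of complexes II to V lay below 0, and their median was -0.41. Complex I genes differed from these by 0.13, -0.21, -0.04 and -0.03 in median on arrays 1 to 4, above 0 on 1 array and below 0 on 3, and the difference was not tested. By complex the median was 0.12 over 6 genes of complex II, -0.49 over 7 of complex III, -0.42 over 11 of complex IV and -0.51 over 16 of complex V. Genes of mitochondrial mass and biogenesis were evenly split, with 7 of 14 below 0 and a median of 0.02.

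The median over the measured NDUF genes lay below 0 under each of the 17 alternatives, with 38 genes measured under the stricter filter and 41 with no filter. With the deposited log2 ratios of the authors, 31 genes lay below 0, where 53.9% of all named genes did, and the median was -0.39. With median centring in place of loess complex I differed from all named genes by -0.56 in median, against -0.31 as reported, and the sign of 7 genes turned.

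**Figure D5:**
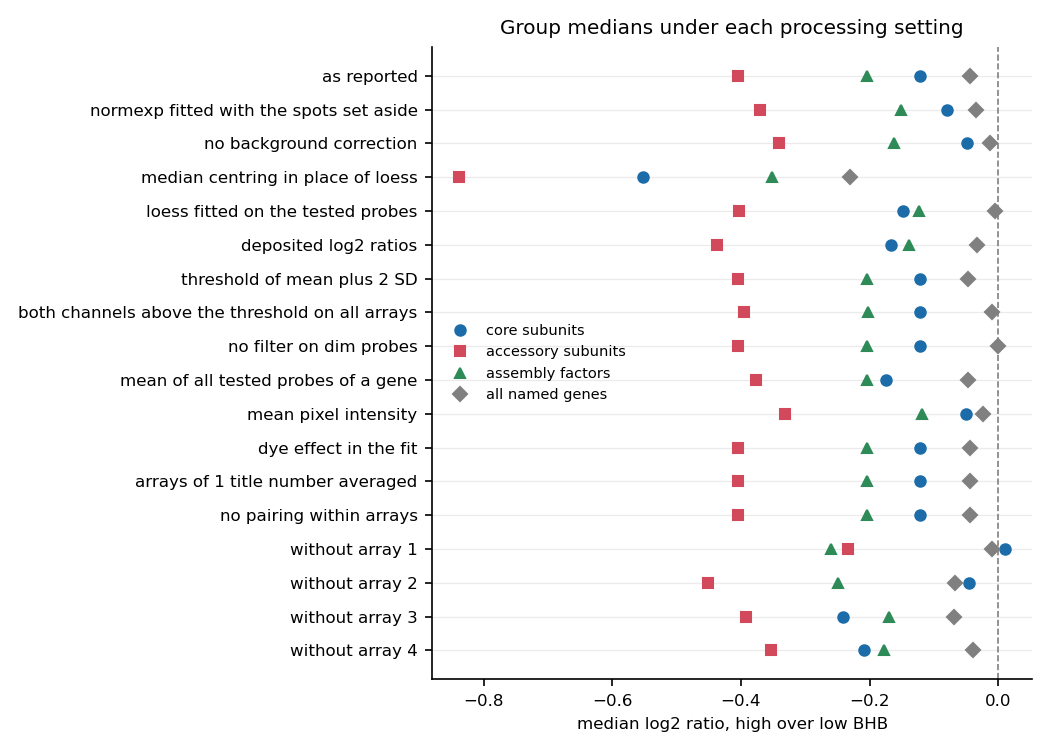
Median log2 ratio of high over low BHB (x axis) of core subunits, accessory subunits, assembly factors and all named genes under each processing setting (rows, as reported at the top). Accessory subunits and assembly factors lie below 0 in every row, core subunits reach 0.0099 without array 1, and all 4 groups lie lowest or near lowest with median centring.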

How the data were processed

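Median spot and local background intensity in each channel was deposited per array with no normalization, per the file headers, from RNA amplified with the RiboAmp HS Plus kit and labelled with the Universal Linkage System, per the labels' protocols. The authors also deposited log2 ratios, and the submitters' processing notes name limma with no step. Scanner software was not given in the sources used here. From the intensities, background was corrected with normexp (offset 50) fitted without spots set aside by the scanner software (95 to 114 per array), and ratios were loess-normalized (span 0.3) and turned to high over low BHB. A probe was tested where its spot exceeded the median plus 2 MAD of 153 negative control spots in 1 group's channel on at least 3 arrays (16575 of 43794 probes). Channel levels were scaled between arrays by Aquantile. Tests used limma 3.58.1 in R 4.3.3 on all tested probes with Benjamini-Hochberg adjustment, and the fit was tested on simulated data. Gene symbols came from the platform annotation, and all 41 matched the RefSeq gene table of ARS-UCD2.0. Core subunits and assembly factors are given array by array, as are the 10 lowest and 5 highest accessory subunits. The members and lists were chosen with earlier results of these data known.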

Additional observations from a re-analysis of the deposited data

Results flagged for a closer look

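In 4 of the 40 complex I genes 1 array stood apart from the other 3 by Dixon's test, where chance flags about 1 in 20 groups of values, and 0 of 4 class medians did. NDUFV2 had a mean ratio of -1.10 with array 1 at -3.01. NDUFB5 had a mean of -0.63 with array 4 at -0.80, among ratios that were otherwise within 0.05 of each other. NDUFA11 had a mean of -0.28 with array 3 at 0.40. NDUFB9 had a mean of 0.083 with array 1 at 0.82, where its other tested probe stood at -1.08. The cause was not tested in any of them.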

How the results depend on the processing

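Of the 40 complex I genes 27 kept their sign under each of the 17 alternatives that measured them (25 below 0 and 2 above), and 13 did not. NDUFAF1 and NDUFB4 were not measured under the stricter filter. The number of arrays limits the precision: leaving out 1 array moved 25 genes over 1.5 times or across 0. With median centring the medians were -0.79 over complex I genes, -0.55 over core, -0.84 over accessory and -1.10 over NDUFB subunits and -0.35 over assembly factors, and complex I differed from all named genes by -0.56. There 0 genes lay above 0 on all arrays, 0 had an unadjusted limma p under 0.05 above 0, 0 probes passed adjustment, and signs turned for NDUFA1 (-0.34), NDUFA9 (-0.070), NDUFAF3 (-0.35), NDUFB9 (-0.38), NDUFS6 (-0.10), NDUFS7 (-0.23) and NDUFS8 (-0.38). The count above 0 at an unadjusted p, 2 as reported, was 1 with loess on tested probes, the stricter filter, the mean of a gene's probes or a dye term, and 0 with the deposited ratios or without pairing within arrays, where the count below 0 was 6. With mean pixels 1 gene lay above 0 on all arrays. Probes past adjustment, 2 as reported, numbered 0 with normexp on all spots, mean pixels or no pairing, 1 without background correction, without a filter, with the mean of probes or with a dye term, and 3 with the stricter filter. Other turned signs were NDUFA1 (-0.052) with loess on tested probes, NDUFA1 (-0.0067), NDUFA10 (0.024), NDUFB9 (-0.080) and NDUFS8 (-0.13) with the mean of probes, and NDUFV3 (0.076) with mean pixels. Titles give arrays 1 and 3, and 2 and 4, the same number, while descriptions call all 4 biological replicates. Over tested probes arrays 1 and 3 correlated at 0.10 and arrays 2 and 4 at 0.18, and pairs of different numbers at 0.18 to 0.38. With this replicate block, averaging arrays of a title number, 1531 of 16575 tested probes and 9 of the 40 complex I genes passed adjustment in limma. That fit had only 2 averaged values per probe, so its calls are not firmer than those on 4 arrays. In the replicate block 6 of the 40 genes lay above 0 on all averaged arrays. Shares of named genes for these counts, and for the counts at an unadjusted p, were not taken under any alternative. Leaving out each array in turn gave core medians of -0.24 to 0.0099, 10 to 15 genes below 0 and 0 to 2 above at an unadjusted p, and 0 to 2 probes past adjustment. The same ranges were -0.21 to 0.33 for NDUFA1, -0.24 to 0.023 for NDUFA10, -0.12 to 0.032 for NDUFA13, -0.24 to 0.090 for NDUFA8, -0.14 to 0.052 for NDUFAB1, -0.17 to 0.37 for NDUFAF3, -0.32 to 0.14 for NDUFB7, -0.16 to 0.17 for NDUFB9, -0.067 to 0.34 for NDUFS7, -0.089 to 0.22 for NDUFS8 and -0.15 to 0.095 for NDUFV3. The cause was not tested.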

Other observations

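Among the members brighter genes tended to have lower ratios. Across the 40 genes Pearson's r between mean ratio and mean log2 intensity was -0.37, as a description of points that share arrays and labelling. Across the 7886 named genes r was 0.02, but this is no independent reference. The loess step removes such a trend over all probes of each array. Complex I genes were bright, with a median log2 intensity of 10.92 against 9.06 over all named genes. The part of brightness in the ratios was not tested.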
